A study of Saccharomyces cerevisiae with 2 samples.

Results

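The genes described here are the protease set of the yeast vacuole and its nearest subtilisin relatives: PEP4, PRB1, PRC1, CPS1, APE3 and DAP2, which encode vacuolar proteases, PBI2, which encodes an inhibitor of the PRB1 product, and RRT12 and YSP3, which encode relatives of it. They were picked by name from the deposited table, and all 9 were found among its 6592 named genes. Ribosome footprints, the stretches of mRNA that ribosomes cover, had been sequenced from 2 cultures of the SK1 strain background, one with GIM3 deleted and one wild type. GIM3 encodes a subunit of prefoldin, a cochaperone of actin and tubulin. Both cultures were grown in rich medium (YEPD) for 24 hours at 22 degrees C and in BYTA for 16 hours, then washed and held for 4 hours in sporulation medium, where starved cells enter meiosis. Whether the strains carry further alleles is not given in the sources used here. Each genotype had 1 library, so the error between cultures is unknown and no test between genotypes was possible. Intervals are 95% intervals of counting error only.

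The vacuole is the degradative compartment of yeast, comparable to the lysosome. Its hydrolases are mostly made as inactive precursors, travel through the secretory pathway, and are activated on arrival in a cascade headed by proteinase A, the PEP4 product, and carried on by proteinase B, the PRB1 product. Yeast without proteinase A does not sporulate, and starved cells depend on the vacuolar proteases to recover amino acids from their own proteins. Footprints report how many ribosomes sat on the mRNA of a gene, not the amount or activity of the protease.

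The gim3 deletion library held 27864644 footprints and the wild-type library 40433177, so that 1 read is worth 0.0359 and 0.0247 RPM (each library's reads scaled so that they sum to 1000000). The library labelled gim3 deletion had 3 reads at GIM3, or 0.108 RPM, against 34.9 RPM in wild type. A gene was compared where its 2 values averaged at least 10 RPM, which 4916 genes did, and all 9 members passed. The fewest reads behind a member's value were 1408, for DAP2 in the gim3 deletion library, and the most were 578211, for PRB1 in wild type. A gene was called different at 2-fold or more on the scale of log2(RPM + 1). All members stood far above the pseudocount of 1 RPM, so that it hardly affected them. The median compared gene had a log2 ratio of -0.20, and values centred on that gene are given where the choice matters.

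Of the 9 genes, 1 passed the 2-fold limit upward in gim3 deletion, as did 6.35% of all compared genes, and 1 passed it downward, as did 8.5% of them. RRT12 was the higher one and CPS1 the lower one, and both shares are too near the background to set the group apart. The other 7 lay within 2-fold, from YSP3 at a log2 ratio of -0.95 to PRB1 at -0.09. The median log2 ratio of the 9 was -0.52, beside -0.20 over all compared genes. In the deposited scaling 8 of the 9 ratios were below 0, as were 64.5% of all compared genes, and 5 of the 9 were below the median gene, as 50% of all genes are. With a limit of 1.5-fold, 4 of the 9 were lower (CPS1, YSP3, DAP2 and PEP4), as were 22.6% of all compared genes. Together the 9 genes took 1.92% of all footprints in the gim3 deletion library and 2.10% in wild type.

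**Figure D1:**
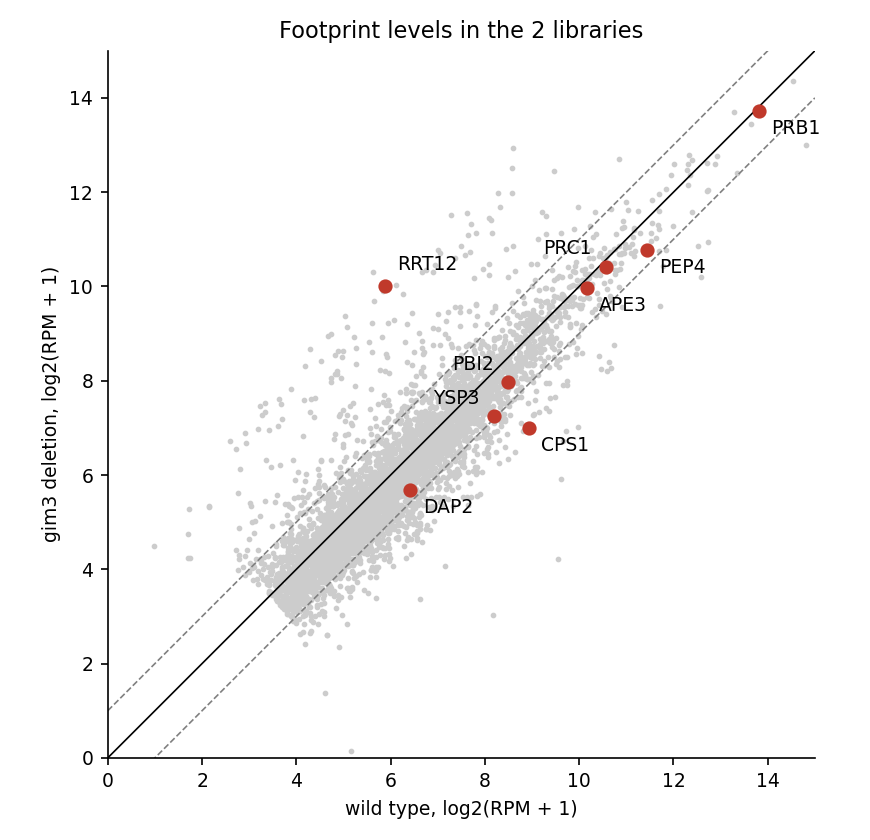
Each grey point is 1 of the 4916 compared genes, with its level in the gim3 deletion library on the vertical axis and in the wild-type library on the horizontal axis, both as log2(RPM + 1). The solid line marks equal levels and the dashed lines 2-fold. The 9 named genes are in red: RRT12 stands far above the upper dashed line, CPS1 below the lower one, and the other 7 between the lines.

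Of the 9 genes PRB1 had the highest level per kilobase in both libraries. PRB1, the subtilisin-type serine endoprotease of the vacuole lumen, had 13466 RPM in the gim3 deletion library and 14300.4 RPM in wild type. That was 1.35% of all footprints in the gim3 deletion library and 1.43% in wild type. Per kilobase of gene, only 6 compared genes with a known length stood above PRB1 in the gim3 deletion library and 3 in wild type. The ratio of its RPM values was 0.942 (0.938 to 0.946), a difference larger than counting error but small, and it turns to 1.09 when centred on the median gene.

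PEP4, the aspartyl protease that starts activation, was lower than PRB1 in both libraries per kilobase. It had 1750.1 RPM in the gim3 deletion library and 2779 RPM in wild type, 1.59-fold lower (1.57 to 1.61), or 1.38-fold lower when centred. PEP4 and PRB1 therefore differed unequally. PRB1 had 4.91 times the footprints of PEP4 per kilobase in the gim3 deletion library and 3.28 times in wild type. That quotient of 2 genes within a library does not depend on how the libraries were scaled, and the wild-type quotient was 0.669 of that in the gim3 deletion library (0.661 to 0.676).

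The exopeptidases, which trim peptides from their ends, divided into those close to the median gene and those below it. PRC1 encodes carboxypeptidase Y, a serine carboxypeptidase and the classical cargo of vacuolar sorting. It had 1369 RPM in the gim3 deletion library and 1514 RPM in wild type, a ratio of 0.905 (0.893 to 0.916). APE3, which encodes aminopeptidase Y, had 999 RPM in the gim3 deletion library and 1144 RPM in wild type, a ratio of 0.874 (0.861 to 0.887). Both were below 1 in the deposited scaling and turn to 1.04 and 1.01 when centred. PRC1 and APE3 also kept nearly the same proportion to each other, 1.38 to 1 per kilobase in the gim3 deletion library and 1.34 to 1 in wild type.

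DAP2 encodes dipeptidyl aminopeptidase B, which is anchored in the vacuolar membrane, and it had the lowest level of the 9 per kilobase in both libraries. It had 50.5 RPM in the gim3 deletion library and 84.5 RPM in wild type, 1.67-fold lower (1.57 to 1.78), or 1.45-fold lower when centred. Against APE3, the more abundant aminopeptidase, DAP2 was thus scarcer: APE3 had 30.1 times its footprints per kilobase in the gim3 deletion library and 20.6 times in wild type.

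CPS1, which encodes carboxypeptidase S, a metallopeptidase that is repressed when nitrogen is plentiful, was the only member lower by more than 2-fold. It had 126 RPM in the gim3 deletion library and 487 RPM in wild type, 3.87-fold lower (3.73 to 4.01), or 3.36-fold lower when centred. Of the 4916 compared genes 40 had a lower ratio. Set against the other carboxypeptidase, CPS1 had 0.0849 of the footprints of PRC1 per kilobase in the gim3 deletion library and 0.297 in wild type. That quotient was 3.50 times as large in wild type (3.37 to 3.63), whatever the scaling.

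A list of 16 genes repressed by good nitrogen sources, of which 14 were compared, was lower in the same pair of libraries. In gim3 deletion 12 of these were lower by 2-fold or more and 0 were higher by as much, with a median log2 ratio of -1.80 and a range from -5.34 to 0.27. Over all compared genes 8.5% were lower by as much and 6.35% higher. Summed over the list, GDH2 included, there were 4805 RPM in the gim3 deletion library and 7849 RPM in wild type. GDH2, with the highest ratio of the list, made up 3987 RPM of this in the gim3 deletion library and 3304 RPM in wild type. In both libraries 1 gene was listed at 0. The part of nitrogen state in the value of CPS1 was not tested. Its neighbours on the chromosome, RFA3 and TOH1, had log2 ratios of -0.38 and -0.25.

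**Figure D2:**
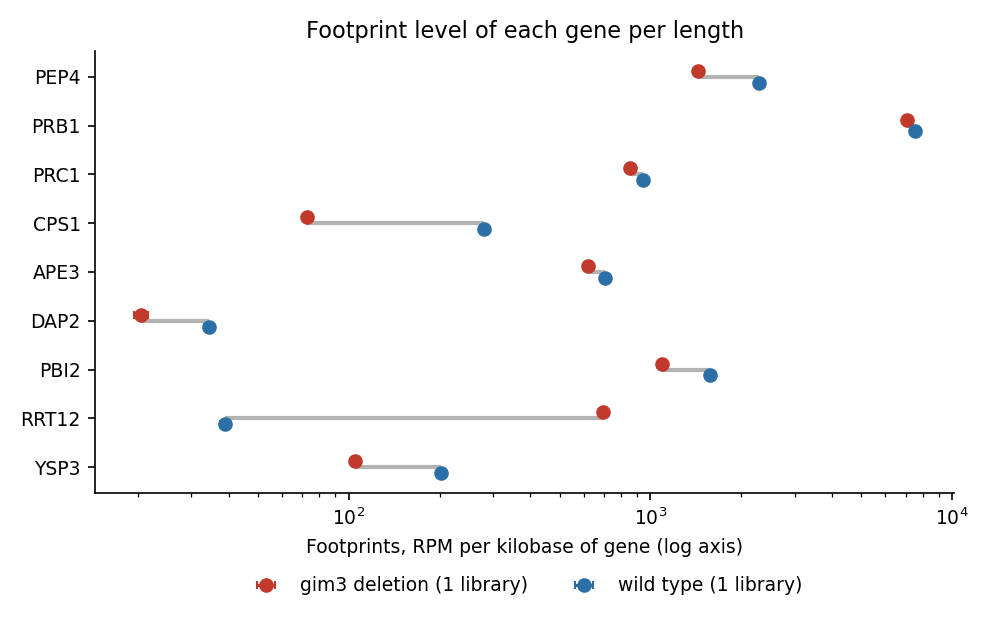
Footprint level of each gene in RPM per kilobase of gene, on a log axis, in the gim3 deletion library (red) and the wild-type library (blue), 1 library each. Horizontal bars on the points are exact 95% Poisson intervals of counting error, mostly narrower than the points. The grey lines join the 2 levels of a gene: PRB1 is highest in both libraries, RRT12 is 694.6 in the gim3 deletion library and 39.0 in wild type, and DAP2 is lowest in both.

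PBI2 encodes a small protein of 75 residues that sits in the cytosol, inhibits proteinase B and, bound to thioredoxin, takes part in vacuole fusion. It had 249 RPM in the gim3 deletion library and 358 RPM in wild type, 1.44-fold lower (1.40 to 1.48), or 1.25-fold lower when centred. Because the gene is short, these values make it the third member by level per kilobase in both libraries, after PRB1 and PEP4. PRB1 had 6.46 times the footprints of PBI2 per kilobase in the gim3 deletion library and 4.77 times in wild type. This quotient was 1.35 times as large in the gim3 deletion library (1.32 to 1.39).

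The cytosolic inhibitors of proteinase A and carboxypeptidase Y were closer to the median gene. PAI3, which inhibits proteinase A, had 93.5 RPM in the gim3 deletion library and 106 RPM in wild type, with a log2 ratio of -0.18. TFS1, which inhibits carboxypeptidase Y, had 170 RPM in the gim3 deletion library and 204 RPM in wild type, with a log2 ratio of -0.26. The quotient of protease over inhibitor went opposite ways in these 2 pairs. Per kilobase, PEP4 over PAI3 was 3.18 in the gim3 deletion library and 4.46 in wild type. PRC1 over TFS1 was 3.32 in the gim3 deletion library and 3.06 in wild type, the same direction as PRB1 over PBI2. The difference for PRC1 over TFS1 was small, 1.09 times as large in the gim3 deletion library (1.05 to 1.13). PEP4 over PAI3 was 1.40 times as large in wild type (1.33 to 1.47).

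RRT12, also named OSW3, encodes a subtilisin-family protein of spore wall formation, and it showed the widest difference of the 9. It had 1025 RPM in the gim3 deletion library, from 28568 reads, and 57.5 RPM in wild type, from 2326 reads. The gim3 deletion level was 17.8-fold that of wild type (17.1 to 18.6), or 20.5-fold when centred, and 10 of the 4916 compared genes had a higher ratio. In these bulk libraries more cells at a stage and more footprints per cell cannot be told apart, and neither can mRNA level and translation.

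RRT12 thereby changed its place among the 9. Per kilobase it stood between PRC1 and APE3 in the gim3 deletion library, at 694.6 RPM, and just above DAP2 in wild type, at 39.0 RPM against 34.4 RPM for DAP2. Among all compared genes with a known length it stood above 94.4% in the gim3 deletion library and above 39.0% in wild type. Of the flanking genes, PER1 had 7.18 RPM in the gim3 deletion library and 12.8 RPM in wild type, below the filter, and IMG1 had a log2 ratio of 0.56. RRT12 overlaps no other gene in the RefSeq table.

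Genes of the middle meiotic programme, which act in meiotic division and in building spores, differed in the same direction. In gim3 deletion 12 of the 13 compared genes of that list were higher by 2-fold or more and 0 were lower by as much, with a median log2 ratio of 3.37 beside 4.13 for RRT12. Over all compared genes 6.35% were higher by as much and 8.5% lower. All 14 listed middle meiotic genes, the uncompared one included, summed to 25685.5 RPM in the gim3 deletion library and 2352 RPM in wild type. Early meiotic genes had a median of -0.10 and all 10 were within 2-fold. Markers of mating cells and of mitotic G1 cells were scarce, with sums over 8 and 10 genes of 42.1 and 115 RPM in the gim3 deletion library, against 27.1 and 130.1 RPM in wild type, and none was at 0 in either. The part of meiotic stage in the value of RRT12 was not tested.

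YSP3 encodes the other relative, a putative subtilisin-like protease precursor whose substrates are not known. It had 151 RPM in the gim3 deletion library and 292 RPM in wild type, 1.94-fold lower (1.87 to 2.00), or 1.68-fold lower when centred. It was the member nearest to the 2-fold limit without passing it. RRT12 and YSP3 exchanged their order: RRT12 had 6.62 times the footprints of YSP3 per kilobase in the gim3 deletion library and 0.192 times in wild type, a quotient 34.5 times as large in the gim3 deletion library (32.6 to 36.4).

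Seen as one family, the 3 subtilisin genes took almost equal footprints in the 2 libraries in the deposited scaling, 14642 RPM in the gim3 deletion library and 14650 RPM in wild type, a ratio of 0.999 (0.996 to 1.003). That ratio is higher when centred on the median gene, whose log2 ratio was -0.20. Most of the sum was PRB1, with 92.0% of these reads in the gim3 deletion library and 97.6% in wild type. The shares per kilobase, which divide a different sum, also differed between the libraries. Per kilobase, PRB1 held 89.8% of the footprints of the 3 genes in the gim3 deletion library and 96.9% in wild type. RRT12 held 8.84% in the gim3 deletion library and 0.504% in wild type, and YSP3 held 1.33% in the gim3 deletion library and 2.62% in wild type.

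**Figure D3:**
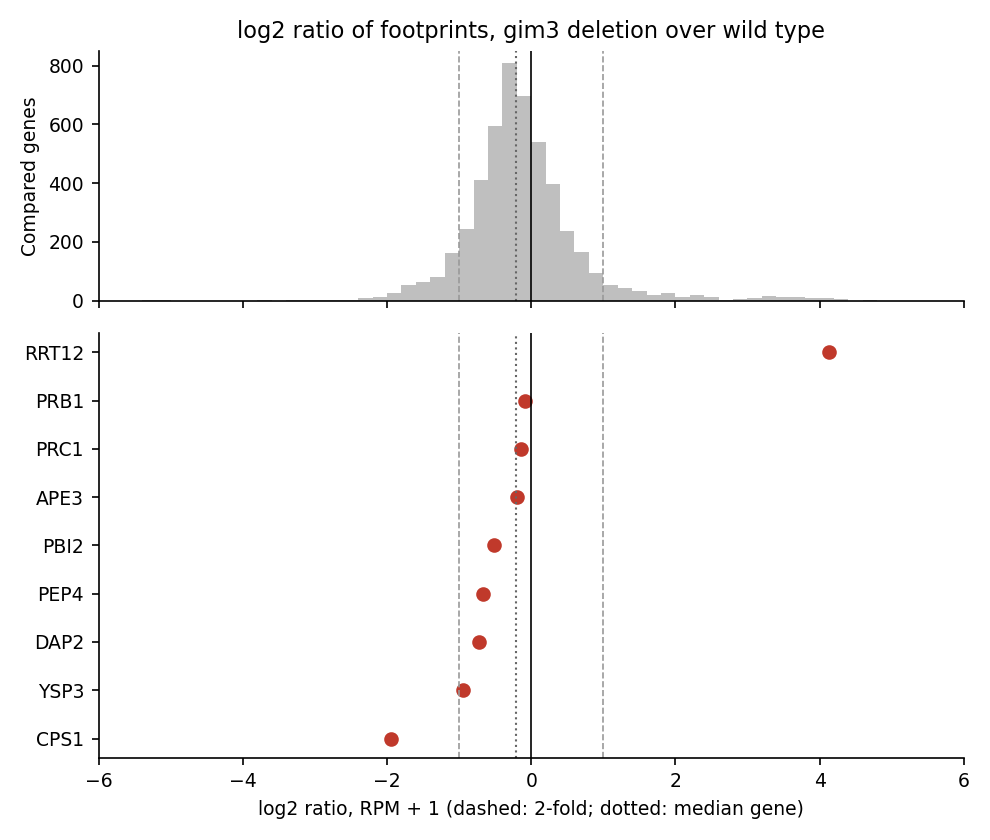
Top: distribution of log2(RPM + 1) in gim3 deletion minus that in wild type for the 4916 compared genes. Bottom: the same ratio for each of the 9 genes on the same axis, 1 library per genotype and no error bars. RRT12 is at 4.13 and CPS1 at -1.94, outside the dashed 2-fold lines, and the other 7 genes are between those lines and below 0.

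The order of the 9 levels per kilobase was PRB1, PEP4, PBI2, PRC1, RRT12, APE3, YSP3, CPS1 and DAP2 in the gim3 deletion library. In wild type it was PRB1, PEP4, PBI2, PRC1, APE3, CPS1, YSP3, RRT12 and DAP2. RRT12, APE3 and CPS1 stood at different places in the 2 libraries, and the other genes held the same places in both. No 2 neighbours in either order had overlapping counting intervals, but without replicate cultures the spread that matters for the order is unknown. The closest neighbours were RRT12 and APE3 in the gim3 deletion library, 1.12-fold apart, and RRT12 and DAP2 in wild type, 1.13-fold apart.

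Other hydrolases of the vacuole were compared next, from a list of 11, all of which passed the filter. In gim3 deletion 1 of them was higher by 2-fold or more, as were 6.35% of all compared genes. Of the list, 0 were lower by as much, beside 8.5% of all compared genes. The list had a median log2 ratio of 0.12, beside -0.52 for the 9 members and -0.20 over all genes. The higher one was SGA1, the glucoamylase that breaks down glycogen in sporulating cells, with 265 RPM in the gim3 deletion library and 29.8 RPM in wild type, 8.92-fold higher (8.39 to 9.49). PPN1, a vacuolar polyphosphatase, was within 2-fold at a log2 ratio of 0.84 and reached 1.04 when centred. ATG15, the vacuolar lipase, was lowest at -0.45. APE1 (LAP4), an aminopeptidase that reaches the vacuole directly from the cytosol, had a log2 ratio of -0.29, near APE3 at -0.19.

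The machinery that carries proteases to the vacuole lay within 2-fold throughout, with 0 of 22 listed sorting genes called in either direction and a median log2 ratio of -0.12. Over all compared genes 6.35% were called higher and 8.5% lower. PEP1 (VPS10), the sorting receptor for carboxypeptidase Y, had 177 RPM in the gim3 deletion library and 225 RPM in wild type. VAM3, a syntaxin-type fusion protein of the vacuole, was highest at 0.51, and VPS5, of the retromer coat that returns the receptor, lowest at -0.66. Relatives of the members in the Golgi or at the cell surface were also within 2-fold in the 6 compared of 10 listed. KEX2, the subtilisin-type processing enzyme of the Golgi, had 60.4 RPM in the gim3 deletion library and 60.1 RPM in wild type. YPS1, an aspartyl protease at the cell surface, was highest of these at 0.51, and KEX1, the Golgi carboxypeptidase related to PRC1, lowest at -0.73.

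**Figure D4:**
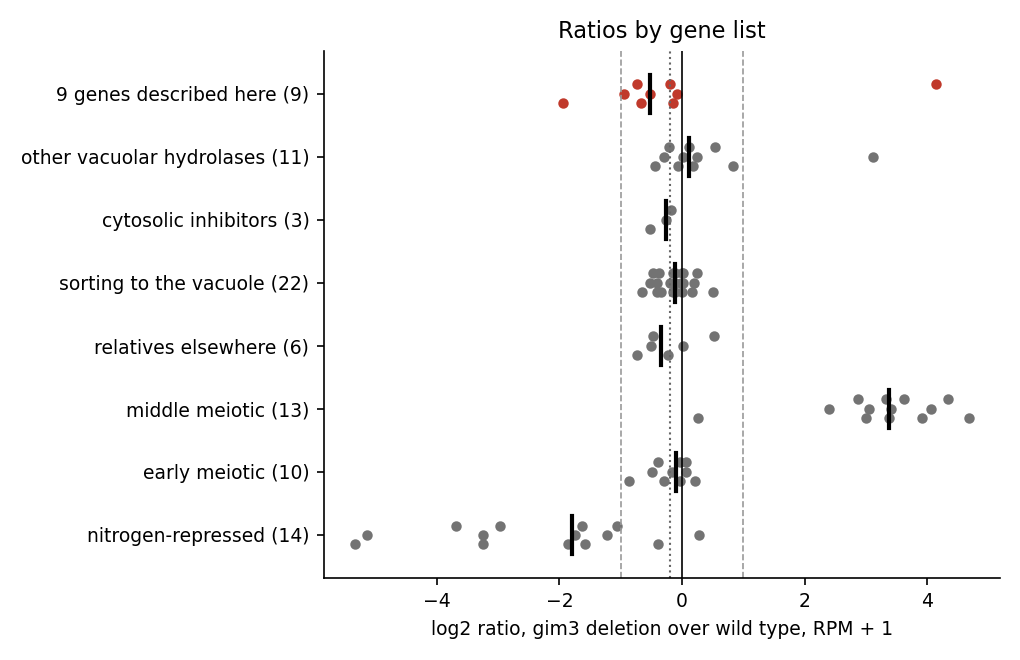
Difference of log2(RPM + 1), gim3 deletion minus wild type, for the 9 genes (red) and the compared genes of 7 lists (grey), with the number of genes in brackets. Black bars are medians, dashed lines 2-fold and the dotted line the median of all compared genes. PBI2 is both among the 9 and in the inhibitor list. The lists of vacuolar hydrolases and sorting genes centre near 0 with SGA1 apart at 3.11, the middle meiotic list lies around 3.37 and the nitrogen-repressed list around -1.80.

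For each member the 2 genes nearest in level in both libraries were found, by the distance between their log2(RPM + 1) values, among 4614 compared genes with a standard name. With only 2 libraries such likeness is a weak measure and describes level and ratio alone. RRT12 was nearest to SPS18, at 962 RPM in the gim3 deletion library and 56.2 RPM in wild type, and next to HIM1, at 824 RPM in the gim3 deletion library and 49.2 RPM in wild type. CPS1 was nearest to CAN1, the arginine permease, at 124 RPM in the gim3 deletion library and 451 RPM in wild type, and then to HTA2, a histone gene with a near-identical copy. YSP3 was nearest to IZH1 and PBP1, PEP4 to CAR1 and NCE102, PBI2 to GLK1 and AIP1, DAP2 to DAM1 and VMA8, PRC1 to SPO22 and RPN1, and APE3 to RNP1 and APE2. PRB1 had no gene within 0.25 of it, the nearest being ADY2 at a distance of 0.31 and SCEI at 0.51.

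The 9 genes lie on 9 different chromosomes in the RefSeq table, and none overlaps another gene there. Of the 18 genes next to them, 16 were compared. HAB1, beside APE3, was the only one called, with a log2 ratio of 1.37. Over all compared genes 6.35% were called higher and 8.5% lower.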

How the data were processed

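The authors deposited 1 table of RPM values, a column per library. The unit was read from the values: each column sums to 1000000, and 100% of values in both libraries were whole multiples of the smallest one (tolerance 0.001 of a read), so reads were recovered. The submitters' processing notes name Bowtie2, SAMtools and STAR. Versions, roles, genome build and the treatment of reads matching several places are not stated there. Lines without a gene name (86) held 0.124% of gim3 deletion and 0.121% of wild-type reads and were left out.

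Names were matched to the R64 RefSeq table of S288C (4884 of the 4916 compared genes, and all 9 members), which gave gene lengths with introns and gene order. The log2 ratio used a pseudocount of 1 RPM. Folds are RPM ratios without it, with exact Clopper-Pearson intervals on the division of reads; intervals of quotients between genes are Woolf intervals on the log scale. The intervals treat PCR duplicates as separate molecules. A count model needs replicates and was not run. The members and lists were chosen with earlier results of these data known. Named genes were the members, GIM3, the nearest 2 genes of each member, and the highest, lowest and called genes of the hydrolase, inhibitor, sorting and relative lists. APE1, PPN1, TFS1, PEP1, KEX2, GDH2, the genes flanking CPS1 and RRT12, and HAB1 were named after their values were seen. Sequences of the genes were not used here. The calculation was tested on simulated data. The tools were SciPy 1.17.1, pandas 2.3.3, numpy 2.4.6 and matplotlib 3.10.9 under Python 3.11.15.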

Additional observations from a re-analysis of the deposited data

How the results depend on the processing

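RRT12 was the only member called higher and CPS1 the only one called lower with a pseudocount of 0.1 or 5 RPM, with no filter or one at 50 RPM, and under each of 4 other scalings: the median gene, a trimmed mean, and totals without 138 ribosomal protein genes or without 14 middle meiotic genes. Under these settings 5.51% to 8.3% of all genes kept by the filter were called higher and 5.21% to 9.03% lower. The threshold mattered for the lower calls. At 1.5-fold 4 members were lower (CPS1, YSP3, DAP2 and PEP4), where 22.6% of all genes were. At 3-fold 1 member was lower, where 2.42% of all genes were. The log2 ratio ran from 4.04 to 4.34 for RRT12 and from -1.96 to -1.74 for CPS1. PRB1 (-0.10 to 0.12), PRC1 (-0.16 to 0.06) and APE3 (-0.21 to 0.01) changed sign, because centring subtracts -0.20. Over all genes, centring changed the calls to 408 higher and 256 lower, against 312 and 418. No paired analysis was possible because there was 1 library per genotype. Depth was not the limit for any member, whereas the spread between cultures is unknown.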
